A study of Mus musculus with 24 samples.

Results

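Olig1, Olig2, Runx1, Ets2, Erg and Sim2 are 6 genes for transcription factors in the segment of mouse chromosome 16 that Ts1Cje mice carry in an extra copy. Every Affymetrix probe set whose platform annotation gives 1 of these 6 genes as its only symbol was taken. This gave 8 probe sets for 4 genes among the 12422 of array A (MGU74A) and the 12411 of array B (MGU74B). Array A held 3 of them, for Runx1, Ets2 and Sim2, and array B held 5, of which 3 were for Olig2, 1 for Runx1 and 1 for Ets2. No probe set is annotated to Olig1 or to Erg alone, so no values are given for these 2 genes. Probe sets with several symbols or none were not searched for them.

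Total RNA of mouse brain was compared between 2N mice, with a normal set of chromosomes, and Ts1Cje mice, a model of Down syndrome with partial trisomy. In Ts1Cje mice the distal part of chromosome 16 is present in an extra copy translocated onto chromosome 12, and Sod1 at its boundary was disrupted on that copy. Each array design was hybridised with 6 samples of each genotype, numbered 1 to 6 in the titles. The labels give brain as the tissue, without region, age, sex or strain. They do not state that each sample was a different animal, and the p-values therefore reflect only the spread among these samples, some of which may be technical.

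The 6 proteins belong to 3 kinds of DNA-binding factor. Olig1 and Olig2 are basic helix-loop-helix (bHLH) factors encoded by neighbouring genes, and Olig2 is needed for motor neurons and for oligodendrocytes, the myelinating cells of the brain. Sim2 is a bHLH-PAS factor that pairs with Arnt proteins and is related to single-minded, the midline regulator of Drosophila. Ets2 and Erg are members of the ETS family: Ets2 is activated through the Ras-ERK pathway, and Erg is a factor of endothelial and blood-forming cells. Runx1 is the DNA-binding subunit of core-binding factor, which it forms with Cbfb, and is required for the first blood stem cells.

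The sequences before the start sites of Olig2 and Ets2 are shown because these were the 2 genes whose RNA was bright enough to be tested and because the extra chromosome copy carries both. They are the 250 bases before the annotated start in RefSeq (GRCm38.p6), on the plus strand at chr16:91225300-91225549 for Olig2 and chr16:95702157-95702406 for Ets2. RefSeq entries matched 4 of the 6 genes. Capitals mark, on either strand, the letters CANNTG (the E-box read by bHLH factors), GGAA (the core read by ETS factors), TGTGGT (read by Runx factors), TATAAA (the TATA box) and CCAAT.
Olig2: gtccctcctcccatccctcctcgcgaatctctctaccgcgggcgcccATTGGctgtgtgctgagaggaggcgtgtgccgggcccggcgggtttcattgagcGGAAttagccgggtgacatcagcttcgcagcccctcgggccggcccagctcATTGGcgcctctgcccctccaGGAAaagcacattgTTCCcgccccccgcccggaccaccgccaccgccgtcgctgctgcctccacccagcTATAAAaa
Ets2: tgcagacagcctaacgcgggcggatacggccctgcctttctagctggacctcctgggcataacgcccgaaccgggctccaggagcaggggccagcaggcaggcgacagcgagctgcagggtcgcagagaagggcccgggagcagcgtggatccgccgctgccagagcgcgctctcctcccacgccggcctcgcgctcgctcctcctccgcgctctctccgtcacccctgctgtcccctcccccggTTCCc

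The 2 windows differed in these letters. That of Olig2 held TATAAA once, beginning 8 bases before the annotated start, CCAAT at 2 places and GGAA at 3, whereas that of Ets2 held GGAA once, 5 bases before the start, and none of the others. Neither window held CANNTG or TGTGGT. Over the 32851 RefSeq promoter windows of the same length, GGAA occurred in 93.4%, CANNTG in 66.2%, CCAAT in 33.8%, TGTGGT in 14.0% and TATAAA in 12.4%. Both windows were rich in G and C, with 66.8% for Olig2 and 71.6% for Ets2 against a median of 52.4%. These matches are a description of the letters and were not tied to the array values.

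All 8 probe sets lay at or below the 73.0th percentile of brightness, which is given here as the percentage of an array's probe sets at or below their mean normalised intensity. The brightest were Olig2 106814_at on array B, with a mean of 24.3 at that percentile, and Ets2 94246_at on array A, with a mean of 22.7 (55.7th percentile). The Ets2 set of array B, 164383_f_at, had a mean of 5.79 (35.4th percentile) and the second Olig2 set, 163516_at, a mean of 4.29 (27.4th percentile). These 4 lay above the filter, the 25th percentile of the means, which lay at 5.11 (array A) and 3.90 (array B). The other 4 lay below it, with means of 2.87 and 1.61 for the 2 Runx1 sets, 2.15 for the third Olig2 set and 1.95 for Sim2. Both 163516_at and 164383_f_at had a 2N mean under the filter and passed it through their Ts1Cje values, so the number of tested sets that were higher in Ts1Cje is not support for a difference.

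**Figure D1:**
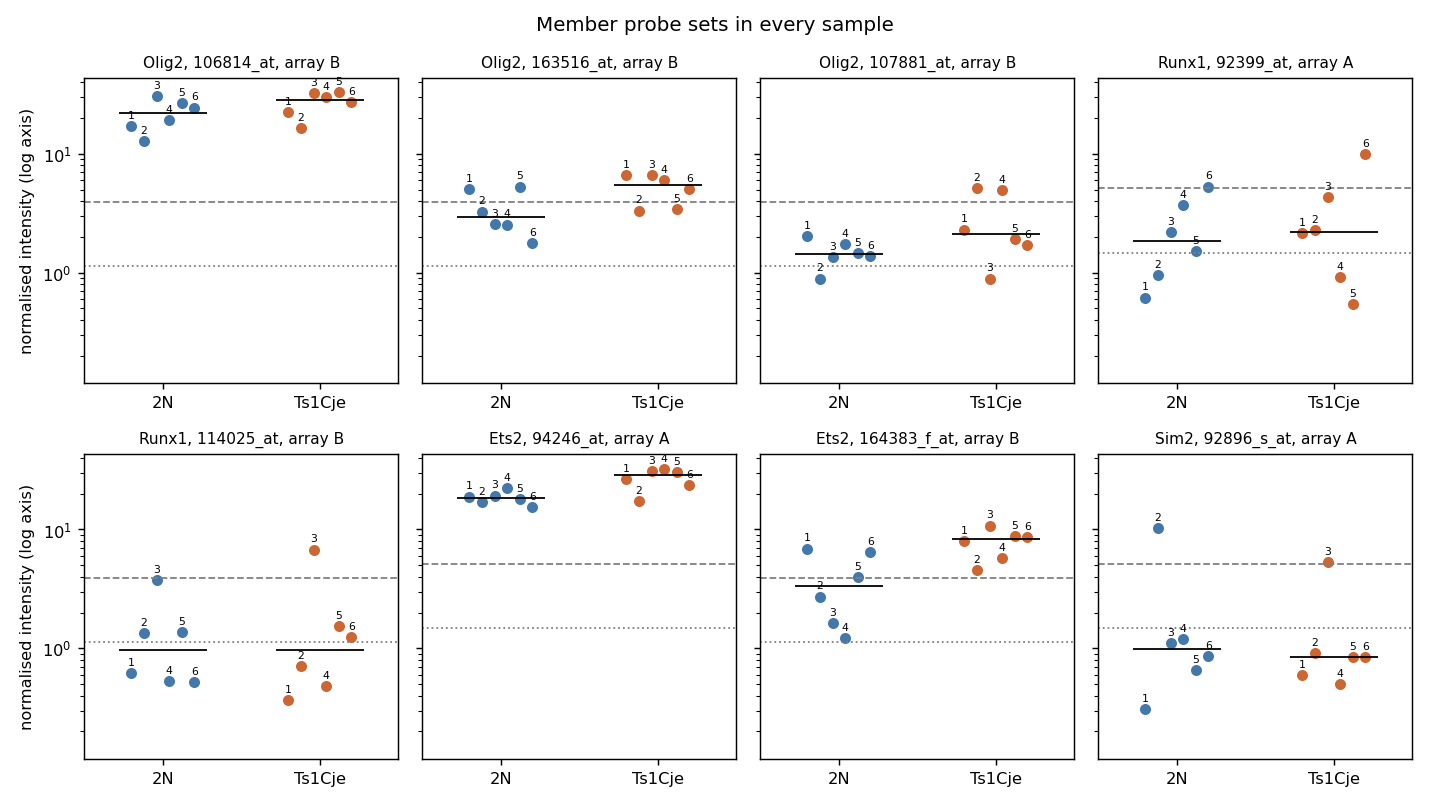
Normalised intensity (log axis) of the 8 probe sets in each of 6 2N and 6 Ts1Cje samples, numbered by replicate, with the group median as a bar, the floor of each table as a dotted line and the filter as a dashed line. Olig2 106814_at and Ets2 94246_at lie above the filter in all 12 samples, and the 2 genotypes overlap in all 8 panels.

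Of the 4 tested probe sets 0 passed the threshold, a limma p-value adjusted over all probe sets of the array by the Benjamini-Hochberg method of under 0.05. Over all tested probe sets 0.0966% of the 9316 of array A and 0.0645% of the 9308 of array B passed as higher in Ts1Cje, and 0% passed as lower. Without the filter these shares were 0.0644% and 0.0161%, and 0 of the other 4 member sets passed. An unadjusted p under 0.05 was reached by 2 of the 4, both of them Ets2 sets, of which 164383_f_at had passed the filter only through its Ts1Cje values. It was also reached by 3.63% (338) of the tested sets of array A and 4.24% (395) of those of array B. The 2 genotypes did not separate completely for any of the 8 sets, where 0.193% of the tested sets of each array (0.153% without the filter) were higher in all Ts1Cje samples than in all 2N samples, and 0.107% and 0.0537% were lower in all. The mean log2 value was higher in Ts1Cje for 7 of the 8 sets, all but Sim2. That was so for 49.1% and 49.8% of all sets of the 2 arrays.

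Ets2 was the gene with the smallest p-values. On array A the 2N samples of 94246_at had a lowest value of 15.5, a median of 18.4 and a highest of 22.4, and the Ts1Cje samples had 17.3, 28.5 and 32.3. Ts1Cje replicate 2 lay within the 2N range, and the other 5 Ts1Cje samples were above all 2N samples. The means were 18.5 ± 2.35 and 26.8 ± 5.65 (SD, n = 6 per genotype), which is a log2 difference of 0.51, or 1.43-fold (SE 0.18, limma adjusted p = 0.99). Its unadjusted p ranked 90th of 9316. The 95% interval of 0.13 to 0.89 excluded 0 before adjustment and held 0.58, the log2 of the 1.5-fold ratio of 3 gene copies to 2.

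The Ets2 set of array B was dimmer and its difference larger, with a wide interval. Its 2N samples had a lowest value of 1.22, a median of 3.35 and a highest of 6.89, and its Ts1Cje samples had 4.58, 8.33 and 10.8. Here 4 of 6 Ts1Cje samples exceeded every 2N sample, and 6 of 6 exceeded the 2N median. The log2 difference was 1.25 (SE 0.46, limma adjusted p = 0.996), with an interval of 0.28 to 2.22, and its p ranked 113th of 9308. The ending _f_at marks a set whose probes may match related sequences, so its signal may not come from Ets2 alone. The 2 Ets2 values were not tested against each other, since the tables were normalised apart and the labels do not say that equal numbers on the 2 arrays stand for the same RNA.

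For Olig2 the 3 probe sets of array B were each higher on average in Ts1Cje without passing. The 2N samples of the brightest, 106814_at, had a lowest value of 12.7, a median of 21.8 and a highest of 30.6, and the Ts1Cje samples had 16.4, 28.6 and 32.9. The ranges overlapped over most of their length, and only 2 Ts1Cje samples lay above all 2N samples. The means were 21.8 ± 6.68 and 26.9 ± 6.42 (SD, n = 6 per genotype), which is a log2 difference of 0.33 with an interval of -0.13 to 0.78 (SE 0.22, limma adjusted p = 0.996). With 1 sample left out, the difference ranged from 0.18, without 2N replicate 2, to 0.46, without Ts1Cje replicate 2. The set varied more within a genotype than others of like brightness, with a residual SD of 0.43 on the log2 scale against a median of 0.28. Replicate 2 was the lowest sample of both genotypes and replicates 1 and 2 were below the median of their genotype in each.

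The second Olig2 set, 163516_at, ran from 1.78 over a median of 2.91 to 5.30 in 2N and from 3.33 over 5.51 to 6.60 in Ts1Cje. All 6 Ts1Cje samples lay above the 2N median and 3 above the highest 2N sample. The log2 difference was 0.65 (SE 0.42, limma adjusted p = 0.996), and the interval of -0.25 to 1.54 held both 0 and the 1.5-fold ratio. The third, 107881_at, ran from 0.892 over 1.42 to 2.02 in 2N and from 0.892 over 2.12 to 5.14 in Ts1Cje, where 2 samples, replicates 2 and 4, stood near 5 and the others within or close to the 2N range. Fitted without a filter, this dim set differed by 0.72 (SE 0.37, limma adjusted p = 0.991). The 3 sets gave log2 differences between 0.33 and 0.72, all with intervals that held both 0 and 0.58. Of these, 163516_at passed the filter only through its Ts1Cje values and 107881_at lay below it, so the 3 are not separate support for a difference.

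Runx1 was near the floor on both arrays, at which values below the 10th percentile of a table (1.47 and 1.13 in the 2 tables) were set equal. On array A the 2N samples of 92399_at ran from 0.617 over 1.85 to 5.30 and the Ts1Cje samples from 0.542 over 2.21 to 9.95, with 4 of 12 samples at the floor. On array B the 2N samples of 114025_at ran from 0.517 over 0.979 to 3.77 and the Ts1Cje samples from 0.367 over 0.975 to 6.78, with 6 of 12 at the floor. Replicate 3 was the highest sample of 114025_at in both genotypes. Fitted without a filter, the log2 differences were 0.28 (SE 0.50, limma adjusted p = 0.982) and 0.15 (SE 0.45, limma adjusted p = 0.998). Neither sign held when 1 sample was left out. The array A difference was -0.09 without Ts1Cje replicate 6, and the array B difference was -0.26 without Ts1Cje replicate 3.

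Sim2 was dimmer than Runx1 and Ets2 on array A, at the 7.08th percentile. The 2N samples of 92896_s_at ran from 0.308 over a median of 0.983 to 10.3 and the Ts1Cje samples from 0.500 over 0.842 to 5.34. In each genotype 1 sample stood above the floor, 2N replicate 2 and Ts1Cje replicate 3, and the other 10 of 12 values were at it. Fitted without a filter, Sim2 differed by -0.16 (SE 0.51, limma adjusted p = 0.995), and by 0.31 without 2N replicate 2. At this brightness neither a change nor its absence in Runx1 or Sim2 was detectable. The intervals of all 8 sets held 0.58, and 6 of the 8 also held 0.

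**Figure D2:**
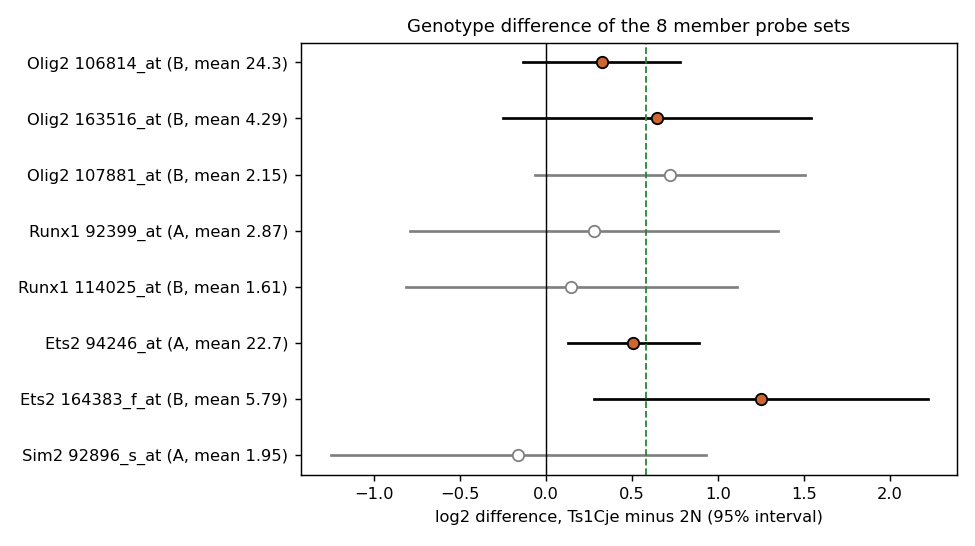
Log2 difference between Ts1Cje and 2N with its 95% interval for the 8 probe sets, with the array and mean intensity in brackets, filled points for the 4 tested sets and open points for the 4 fitted without a filter. The dashed line at 0.58 is the 1.5-fold ratio, which all 8 intervals cross, and the 2 intervals that exclude 0 are those of Ets2. The 4 sets fitted without a filter have wide intervals that hold 0 as well.

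The other genes of the trisomic segment were compared with Ets2 and Olig2 by brightness. On array A 36 probe sets of listed segment genes other than the 6 were tested, and 8 passed, all higher in Ts1Cje. Those 8 had mean intensities of 66.5 to 1260, log2 differences of 0.38 to 0.92 and SEs of 0.054 to 0.14, and the brightest were Hmgn1, which encodes a nucleosome-binding protein, at 0.38 and the ubiquitin ligase gene Ttc3 at 0.52. Of the 18 segment sets no brighter than Ets2 94246_at 0 passed, and of the 18 brighter ones 8 passed. The median log2 difference was 0.43 in the dimmer and 0.54 in the brighter 18, beside 0.51 for Ets2.

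On array B, 6 of 32 tested segment sets passed, with mean intensities of 30.4 to 369, log2 differences of 0.67 to 0.79 and SEs of 0.10 to 0.13. Among the 13 no brighter than Olig2 106814_at 0 passed, with a median difference of 0.39, and among the 19 brighter ones 6 passed, with a median of 0.53. Olig2 106814_at had both a larger SE, 0.22, and a smaller difference, 0.33, than any set that passed there. By gene, with 1 probe set each, the median log2 difference was 0.52 over the 30 segment genes of array A and 0.49 over the 24 of array B, while the median of all tested sets was 0 on both. Other genes for DNA-binding factors in the segment were few: on array B the zinc finger protein genes Prdm15 and Zbtb21 were at 0.14 (SE 0.17) and 0.31 (SE 0.21), and neither passed (limma adjusted p = 0.996 for both).

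**Figure D3:**
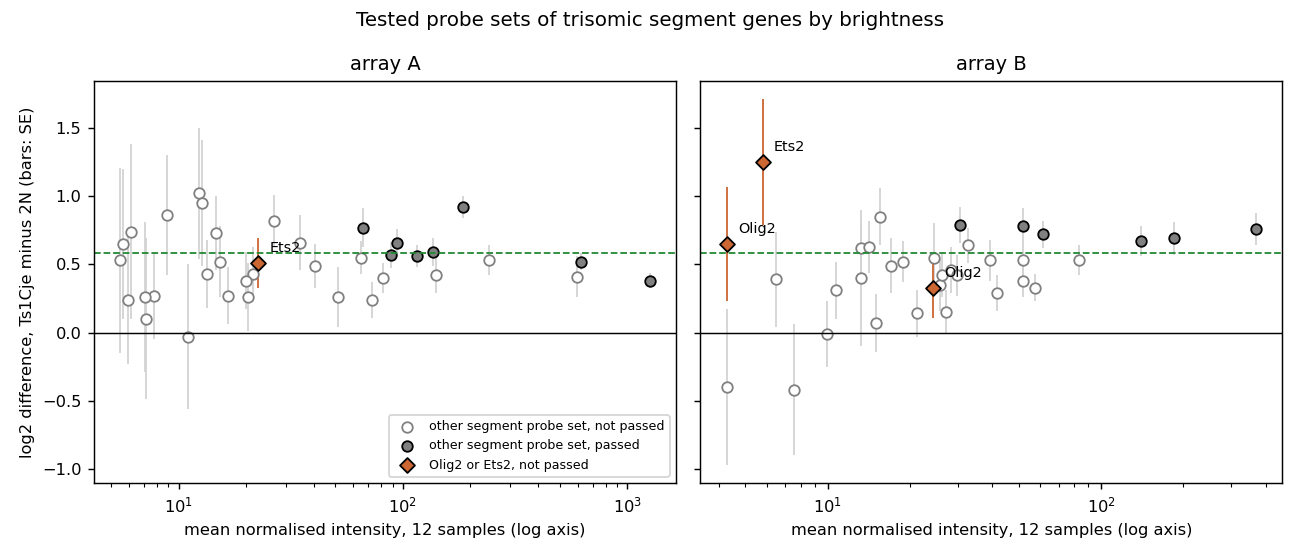
Log2 difference between Ts1Cje and 2N (bars, SE) against mean normalised intensity (log axis) for the tested probe sets of segment genes on each array, with Olig2 and Ets2 as diamonds, other sets as circles, filled where they passed, and the 1.5-fold ratio as a dashed line. The sets that passed have mean intensities of at least 66.5 on array A and 30.4 on array B, to the right of the Olig2 and Ets2 sets.

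The samples were also described by genes that work with or beside the 6 factors, each gene by its brightest tested probe set. Over all tested sets 48.9% were above 0 for array A and 49.3% for array B. Of 21 oligodendrocyte lineage genes, partners or targets of Olig1 and Olig2, array A measured 9 and array B 4, and 0 passed on either. Their median log2 difference was -0.06 on array A, with 2 of 9 above 0, and 0.10 on array B, with 2 of 4 above 0. Pdgfra, the growth factor receptor of oligodendrocyte precursors, differed by -0.01 (SE 0.13). The lineage factor gene Sox10, whose protein acts with Olig2, differed by -0.06 (SE 0.17) on array A and by 0.46 (SE 0.13, limma adjusted p = 0.918) on array B, so its 2 sets did not give 1 direction. The summed intensity of the list ran from 240 to 311 in 2N and from 258 to 318 in Ts1Cje on array A, and from 78.3 to 102 and from 100 to 112 on array B. The array B sum was mostly Sox10, at a mean of 72.3 beside 12.4 for Gpr17, 6.85 for Cspg4 and 6.42 for Mobp. In tissue RNA, fewer cells of a type and less RNA per cell cannot be told apart.

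Partners and relatives of Runx1 numbered 17, of which array A measured 14 and array B 1, and 0 passed. The median on array A was -0.02, with 6 of 14 above 0. Cbfb, which encodes the partner subunit of core-binding factor, was bright, with a mean of 297, and differed by 0.03 (SE 0.075), and the LIM-domain binding gene Ldb1 differed by 0.10 (SE 0.15). Markers of microglia and macrophages and of red blood cells were described in the same way. Of 8 microglia and macrophage markers on array A 3 were above 0 and 0 passed (median -0.08, range -0.32 to 0.51), with the complement genes C1qc and C1qa at -0.32 (SE 0.16) and 0.03 (SE 0.13), and their summed intensity was 289 to 353 in 2N and 256 to 368 in Ts1Cje. Of 5 erythroid and blood markers 0 were above 0 and 0 passed (median -0.17, range -0.82 to -0.15), with the haemoglobin genes Hba-a1 and Hbb-b2 at -0.15 (SE 0.098) and -0.17 (SE 0.17), and a summed intensity of 943 to 1520 against 1020 to 1180.

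ETS family genes outside the segment had mean intensities of 5.34 to 48.9 on array A and 3.92 to 34.4 on array B. Of 24 listed, array A measured 12 and array B 10. None passed, 5 and 3 of them were above 0, and the medians were -0.17 and -0.24. Etv4 and Erf, an activator and a repressor of the family, differed by 0.14 (SE 0.14) and -0.15 (SE 0.18) on array A. Erg is expressed in endothelial cells, whose markers had a median of 0.05 on array A (7 of 13 above 0) and -0.94 on array B (1 of 5 above 0), with 0 passed on either. The tight junction gene Cldn5 and the TGF-beta co-receptor gene Eng, the brightest on array A, differed by 0.05 (SE 0.088) and 0.27 (SE 0.16). The array B median rests on dim sets. Those of the ETS genes Ets1 and Fli1, which both lists hold, and of the VEGF receptor gene Flt1 were chosen after their values were seen. These 3 differed by -1.17 (SE 0.40), -0.94 (SE 0.59) and -1.07 (SE 0.38) there, against -0.33, -0.43 and -0.09 on array A. The remaining array B markers, named to complete the list, did not fall in this way. Esam, the brightest there, differed by -0.01 (SE 0.19) and Eng by 0.23 (SE 0.37). The summed endothelial intensity was 415 to 507 in 2N and 423 to 508 in Ts1Cje on array A, and 42.7 to 49.4 and 25.4 to 44.6 on array B.

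The bHLH-PAS list for Sim2 had 15 measured genes on array A and 9 on array B, of which 8 and 5 were above 0 and 0 passed, with medians of 0 and 0.03. Hif1a, the oxygen-response member, differed by -0.02 (SE 0.074), and Arnt2, a dimerisation partner of Sim proteins in the brain, by -0.04 (SE 0.17) on array A and 0.09 (SE 0.084) on array B. Neural bHLH, Id and Hes genes, which include dimer partners of Olig2 and inhibitors of bHLH factors, had 17 and 4 measured genes, of which 11 and 2 were above 0 and 0 passed, with medians of 0.02 and -0.01. The brightest, the inhibitor gene Id2 and the E-protein gene Tcf4, differed by 0.00 (SE 0.087) and 0.06 (SE 0.097) on array A.

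**Figure D4:**
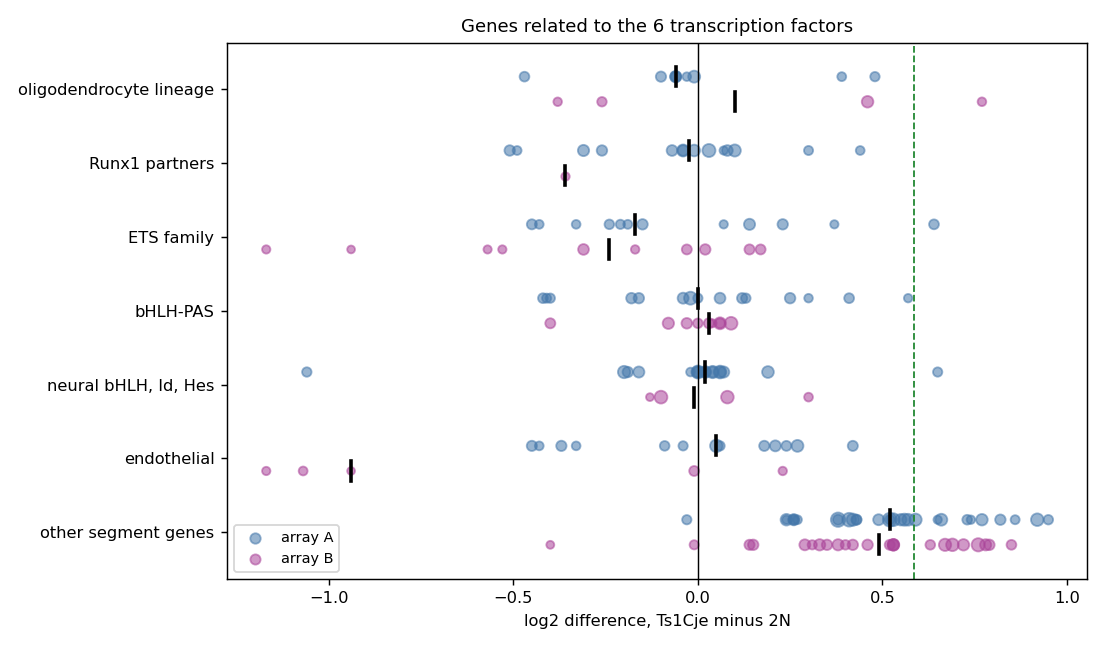
Log2 difference between Ts1Cje and 2N of each measured gene of 7 lists, array A above array B in each row, with larger points for brighter genes, a black bar at the list's median and the 1.5-fold ratio as a dashed line. The lists outside the segment have medians between -0.24 and 0.10 on both arrays, except Runx1 partners on array B with 1 gene at -0.36 and endothelial markers on array B at -0.94, while other segment genes have medians of 0.52 and 0.49.

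The labelled tissue was checked against its markers. Neuronal markers were bright, with Tubb3 and Stmn2 at mean intensities of 2740 and 1870 on array A, and 0 of 10 passed there (median 0.05), with a summed intensity of 6310 to 7140 in 2N and 6880 to 7610 in Ts1Cje. Astrocyte markers were led by Fabp7 and Apoe at 1090 and 969, and 0 of 9 passed on array A (median 0.01). On array B 0 of 6 neuronal and 0 of 5 astrocyte markers passed, with medians of -0.04 and 0.03.

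An earlier treatment of these data set replicates 1 and 2 of both genotypes apart from replicates 3 to 6, a split that the labels do not give. Rank correlations of the deposited values over whole arrays showed little of it. On array A the mean Spearman correlation was 0.926 within replicates 1 and 2, 0.946 within replicates 3 to 6 and 0.932 between them, and on array B it was 0.910, 0.907 and 0.904. Within replicates 3 to 6 the log2 difference was 0.64 (SE 0.19) for Ets2 94246_at, 1.63 (SE 0.58) for Ets2 164383_f_at, 0.30 (SE 0.17) for Olig2 106814_at and 0.87 (SE 0.56) for Olig2 163516_at. Within replicates 1 and 2 the same sets gave 0.26 (SE 0.40), 0.49 (SE 0.72), 0.39 (SE 0.32) and 0.20 (SE 0.74). No member set passed in either part (limma), and in replicates 1 and 2 alone 0 sets of either whole array passed, so that part could not show a call. Since 163516_at and 164383_f_at entered the test through their Ts1Cje values, their sign in the 2 parts is no support. Fitted with this split as a block, Olig2 106814_at kept its difference of 0.33, with an SE of 0.15 against 0.22 (limma adjusted p = 0.944). The SEs of Ets2 94246_at, Ets2 164383_f_at and Olig2 163516_at were then 0.18, 0.47 and 0.43, against 0.18, 0.46 and 0.42.

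The genes whose sample-to-sample pattern was most like that of a member were found by Pearson correlation over the 12 samples of an array, after the genotype means had been subtracted. For Ets2 94246_at these were Tsc22d1 and Ccdc90b (r = 0.91 for both), and for Ets2 164383_f_at Dusp28 and Cul3 (r = 0.94 for both). For Olig2 106814_at they were Vps37a (r = 0.96) and Zfp704 (r = 0.94). Each is the top of the correlations with all other named tested sets, over 12 arrays that share sample quality and normalisation, and the 2 Ets2 sets named different genes on the 2 arrays, whose probe sets differ.

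**Figure D5:**
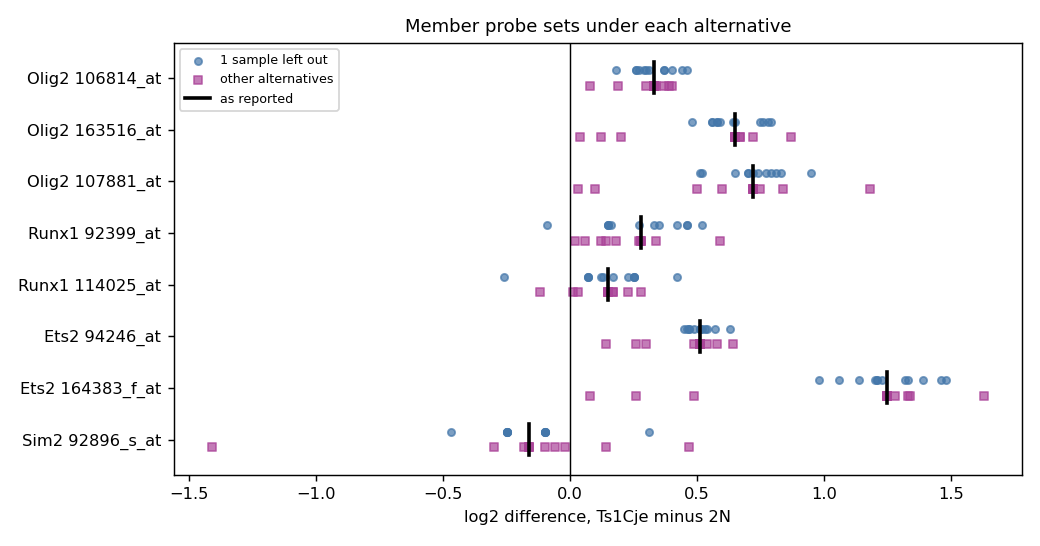
Log2 difference between Ts1Cje and 2N for the 8 probe sets as reported (black bar), with 1 sample left out (circles) and under the other processing alternatives (squares). The 4 tested sets and Olig2 107881_at stay above 0 throughout, whereas both Runx1 sets and Sim2 fall on both sides of 0. Olig2 163516_at and Ets2 164383_f_at passed the filter only through their Ts1Cje values, so their constant sign is no support for a difference.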

How the data were processed

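The deposited tables hold linear intensities, 1 for each probe set of an array. The authors' summary method and scaling are not given in the sources used. The medians of the arrays as deposited were 11.2 to 21.7 (array A) and 7.9 to 13.8 (array B), trimmed means (2% off each end) differed by up to 2.10-fold and 1.86-fold, and each table was quantile normalised. The 66 control probe sets of each array were left out. Values below the table's 10th percentile were set to it, log2 was taken, and those whose mean reached the 25th percentile were tested with limma 3.58.1 (R 4.3.3; lmFit, eBayes with trend) for Ts1Cje against 2N, with Benjamini-Hochberg adjustment within the array. Folds can understate changes of dim genes. Member sets under the filter were fitted in a run without it. Errors of intensities are SD, those of log2 differences limma SEs. The number of arrays limits the precision.

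Probe sets were named by the platform annotation, which gave 1 symbol to 10833 on array A, several to 396 and none to 1193 (array B: 10581, 178 and 1652); sets with several symbols were not named. All member sets were named. From each list came its brightest genes or those that passed. Genes outside this rule are marked as chosen after their values were seen, or complete a list on array B (Gpr17, Cspg4, Mobp and Esam). Segment genes are given mainly as counts. The 2 most alike genes were named per array and member. Members and lists were chosen with earlier results of these data known. The code was tested on simulated data. Alternatives changed the normalisation, floor, filter, trend, weights, blocks and samples.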

Additional observations from a re-analysis of the deposited data

Results flagged for a closer look

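In 4 of the 16 groups of 6 samples formed by the 8 probe sets and 2 genotypes, 1 sample stood far above the others by Dixon's criterion, in which the gap to the nearest sample is divided by the group's range and compared with 0.625. The criterion marks about 1 group in 20 by chance where values vary freely, a rate that does not hold here, because values were set to a floor and a lone sample above it gives a ratio of 1 by construction. All 4 groups belong to the 2 dimmest probe sets, whose remaining samples were at or near the floor. Sim2 92896_s_at was at 10.3 in 2N replicate 2, where the other 5 samples lay between 0.308 and 1.20, and at 5.34 in Ts1Cje replicate 3, where the others lay between 0.500 and 0.908. The ratio was 1 in both. Runx1 114025_at was at 3.77 in 2N replicate 3 (others 0.517 to 1.38, ratio 0.839) and at 6.78 in Ts1Cje replicate 3 (others 0.367 to 1.53, ratio 0.831).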

How the results depend on the processing

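The count of member probe sets that passed was 0 on each array under all alternatives run, leaving out each sample in turn included. The smallest adjusted p of any tested member was 0.486, for Ets2 94246_at without Ts1Cje replicate 2. Without normalisation between arrays 0 probe sets passed on either array, so this count says nothing about the members there. Over all probe sets 9 passed on array A and 6 on array B, but 2 and 0 without the mean-variance trend, 6 and 1 in replicates 3 to 6 alone, 0 and 0 in replicates 1 and 2 alone, and 2 on array B without a filter. The median difference of tested members was 0.51 (array A, 1 set) and 0.65 (array B, the value of Olig2 163516_at, 1 of 2 sets that passed the filter only through Ts1Cje); it was 0.28 on array A without a filter, 0.33 on array B with the 50th percentile filter, which leaves Olig2 106814_at alone, and 0.30 on array A with 16 added before log2. It fell to 0.14 on array A with 64 added before log2, and to 0.19 and 0.08 on array B with 16 and 64 added, which by construction shrinks differences of dim sets. With a sample left out its range was 0.45 to 0.63 for array A and 0.48 to 0.79 for array B. Olig2 106814_at ranged from 0.18, without 2N replicate 2, to 0.46, without Ts1Cje replicate 2. Signs turned only in dim sets: Sim2 was at 0.14 with array weights, 0.47 in replicates 3 to 6 alone and 0.31 without 2N replicate 2, Runx1 92399_at at -0.09 without Ts1Cje replicate 6, and Runx1 114025_at at -0.12 in replicates 1 and 2 alone and -0.26 without Ts1Cje replicate 3. With a sample left out, these 3 sets ranged from -0.47 to 0.31, from -0.09 to 0.52 and from -0.26 to 0.42. Over all tested sets the deviations of samples of equal number correlated by 0.013 to 0.11. The highest correlation of a 2N sample with a Ts1Cje sample of another number was 0.007 to 0.10. Whether samples of equal number share a source was not tested. A block for the sample number (replicate block) gave Olig2 106814_at an SE of 0.13 against 0.22, but Olig2 163516_at one of 0.46 against 0.42. With the replicate block the tested sets kept their differences (0.51 for Ets2 94246_at, adjusted p = 0.895; 1.25 for Ets2 164383_f_at, 0.856; 0.33 for Olig2 106814_at, SE 0.13, 0.894; 0.65 for Olig2 163516_at, 0.921), and 0 passed.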
